A study of Mus musculus with 3 samples.

Results

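Astrocyte sub-cluster 0 was the largest of 5 astrocyte groups, numbered 0 to 4, in the deposited annotation of nuclei from the mouse lumbar spinal cord. Its members were all nuclei that the deposited annotation places in the astrocytes and in sub-cluster 0. They numbered 524 of 1555 astrocyte nuclei (33.7%) and of 14662 nuclei in all (3.57%). Sub-clusters 1 to 4 held 438, 220, 195 and 178 nuclei. The nuclei came from 12 mice aged 90 days. There were 6 SOD1G93A mice of the strain B6.Cg-Tg(SOD1*G93A)1Gur/J and 6 WT littermates on C57BL/6J, with 3 females and 3 males in each genotype. In the former strain, mutant human SOD1 of the kind found in familial amyotrophic lateral sclerosis (ALS) is expressed from its own promoter in many cell types. No mouse with a transgene for normal human SOD1 was among these groups, so the mutation and the excess of SOD1 cannot be told apart. Nuclei were tagged with hashtag antibodies, and each of 3 pools (A, B and C) held 1 mouse of each sex and genotype. Per the paper, each sex and genotype group had its own hashtag in every pool, so tag and group cannot be told apart.

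Astrocytes take up the glutamate and GABA released at synapses, buffer potassium and move water at their end-feet on blood vessels. They also release proteins and lipids that act on synapses and neurons. Those of grey matter and those of white matter differ in shape and in their genes, and in injury and in ALS astrocytes become reactive, the classical sign of which is a rise in the intermediate filament protein GFAP. The questions here were which genes marked sub-cluster 0 among the astrocytes, whether its share differed between genotypes, and which of its genes differed between SOD1G93A and WT mice.

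A mouse contributed 11 to 84 nuclei and 53251 to 491423 UMIs (unique molecular identifiers, each standing for 1 captured RNA molecule) to sub-cluster 0. The SOD1G93A females of pools A and C had the fewest nuclei, 11 and 16. The median nucleus of sub-cluster 0 held 5485 UMIs from 2346 genes and 1.37% mitochondrial UMIs. In sub-cluster 1 the median mitochondrial share was 0.31% and in sub-cluster 4 it was 6.08%. Median UMIs per nucleus were 3717 to 5856 over WT mice (median 5064) and 4618 to 6738 over SOD1G93A mice (median 5784). The p-values below take the mouse as the unit. The spread behind them holds both counting error and differences between mice. The ranges overlapped, and an exact two-sided sign-flip permutation test over the 6 pairs of mice of 1 sex and pool gave p = 0.125, where the smallest possible p is 0.03125. Median mitochondrial shares were 1.06% to 1.74% (median 1.44%) in WT and 1.03% to 2.1% (median 1.44%) in SOD1G93A mice, with p = 0.6875 by the same exact test. Of cell barcodes, 15 occurred in more than 1 pool, and 1 nucleus of sub-cluster 0 had such a barcode.

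All 7 astrocyte markers were detected in sub-cluster 0, and their summed level was 16509 to 19244 CPM over WT mice and 16075 to 19070.1 CPM over SOD1G93A mice. CPM are the UMIs of a gene scaled to the sum of all UMIs of the sub-cluster in that mouse, a unit of relative abundance. Of other cell types, the 5 neuron markers summed to a mean of 644 CPM (3403 in neuron nuclei), the 5 oligodendrocyte markers to 1631 (7883 in oligodendrocyte nuclei) and the 4 markers of oligodendrocyte precursors to 98.4 (3523 in those cells). The endothelial and ependymal markers were at 26.9 and 22.0 CPM (6767 and 3297 in their own cell types). The 4 microglial markers were at 44.2 CPM, against 130.3 in microglial nuclei. The nuclei labelled microglia held a median of 46927 UMIs, against 12864.5 in neuron nuclei and 5338 in astrocyte nuclei. Whether that label takes in other cells was not tested. Most of the astrocyte sum came from Slc1a2, Gpc5 and Aqp4, the markers named for sub-cluster 0, so it is no independent check of the label. The other 4 astrocyte markers, Gja1, Slc1a3, Gfap and Aldh1l1, were at means of 984, 441, 321 and 86.6 CPM, beside measurable levels of oligodendrocyte, neuron and microglial markers.

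Sub-clusters were defined by these same genes, so levels in sub-cluster 0 against the other sub-clusters are given as a description with no test. Slc1a2 encodes the glutamate transporter GLT-1, the main route of glutamate uptake. It reached 7207 ± 702 CPM (SD, n = 12 mice) in sub-cluster 0. The means in sub-clusters 1 to 4 were 5307, 2705, 5435 and 6670.4 CPM. Slc1a2 was higher in sub-cluster 0 than in sub-clusters 1, 2 and 3 in each of 12 mice and higher than in sub-cluster 4 in 7 of 12. Aqp4, the water channel of astrocyte end-feet, was at 1001 ± 251 CPM in sub-cluster 0, with means of 406, 249.6, 2123 and 1309 CPM in sub-clusters 1 to 4. Gpc5, a glypican (a heparan sulfate proteoglycan bound to the membrane), was at 8115 ± 995 CPM, with means of 13353, 6019.7, 1340.3 and 4412 CPM in the others.

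Sub-cluster 0 thus lay between sub-clusters 1 and 3 for Aqp4 and for Gpc5, in 12 of 12 mice for each gene. The same held for Gfap in 12 of 12 mice, with means of 321 CPM in sub-cluster 0, 103 in sub-cluster 1 and 1279 in sub-cluster 3. For the ion channel gene Trpm3 it held in 12 of 12 mice, and for Cd44, a receptor for hyaluronan, in 11 of 12. It held in 10 of 12 mice for the amino acid transporter genes Slc7a10 and Slc38a1 and in 7 of 12 for Agt, which encodes angiotensinogen. By its means, sub-cluster 4 also lay between sub-clusters 1 and 3 for each of these 8 genes. Other grey matter astrocyte genes went differently. Slc1a2, Slc6a11 and Kcnj10 had means in sub-cluster 0 above those of both sub-clusters 1 and 3. Over the 664 genes whose mean level differed 2-fold or more between sub-clusters 1 and 3, 612 (92.2%) had a level in sub-cluster 0 between those of the other two, while 365 (55.0%) had such a level in sub-cluster 4 and 345 (52.0%) in sub-cluster 2. Across 3829 genes with at least 50 CPM in sub-cluster 0 or in the other astrocytes together, the mean log2 levels of sub-cluster 0 correlated with those of sub-cluster 1 at r = 0.942, of sub-cluster 3 at 0.91, of sub-cluster 4 at 0.894 and of sub-cluster 2 at 0.762. These are correlations across genes in nuclei of the same libraries, and genes are not independent replicates.

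**Figure D1:**
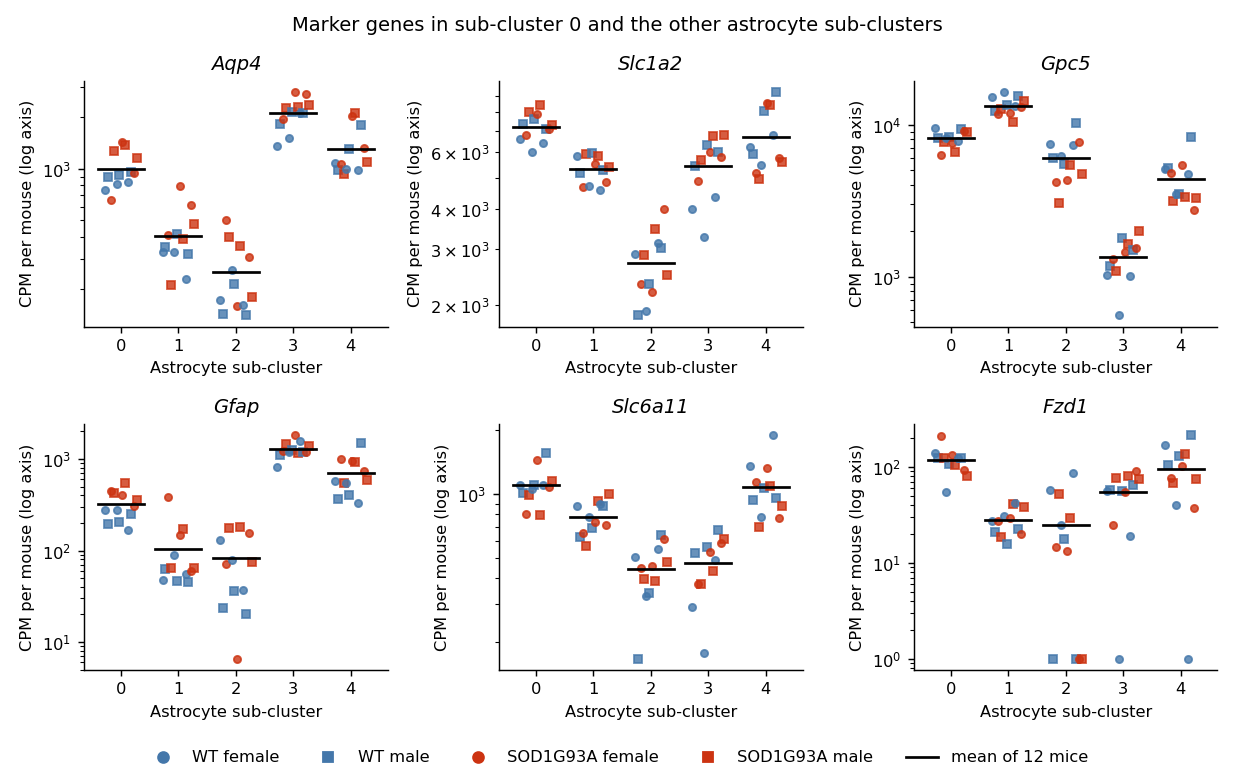
CPM (log axes) of Aqp4, Slc1a2, Gpc5, Gfap, Slc6a11 and Fzd1 in each astrocyte sub-cluster, 1 point per mouse, with mice at 0 drawn at 1 and black lines at the mean of 12 mice. Sub-cluster 0 sits between sub-clusters 1 and 3 for Aqp4, Gpc5 and Gfap and has the highest mean of the 5 for Slc1a2, Slc6a11 and Fzd1.

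Set against sub-clusters 1 to 4 together, sub-cluster 0 differed little in most genes. Of the 3829 genes, 3640 (95.1%) lay within a log2 ratio of 1, 85 genes (2.22%) were higher in sub-cluster 0 in all 12 mice, and 103 (2.69%) were lower in all 12. In all, 308 genes (8.04%) had their highest mean in sub-cluster 0. Of those 85 genes, 41 had their highest mean of the 5 sub-clusters in sub-cluster 0. The largest ratio belonged to Fzd1, a receptor for Wnt proteins. Fzd1 ranged from 54.1 to 207 CPM (median 123) in sub-cluster 0 and from 24.8 to 59.0 (median 46.0) in the other astrocytes, a 2.77-fold higher mean. Against sub-cluster 4 alone, at a mean of 95.4 CPM, it was higher in 8 of 12 mice. Hsd11b1, which makes active glucocorticoid from its inactive form, had a 2.4-fold higher mean, with 41.0 to 114 CPM (median 56.1) against 8.28 to 38.7 (median 25.9). The 2 ranges did not overlap for Hsd11b1. Gm2a, the activator protein for ganglioside breakdown in lysosomes, was 2.36-fold higher, with 69.6 to 163 CPM against 16.2 to 64.5, also without overlap. Gm2a, Tril and S1pr1 were each higher than in sub-cluster 4 in only 7 of 12 mice.

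Atp1b2, a subunit of the sodium-potassium pump found in glia, was at 1005 ± 130.5 CPM in sub-cluster 0 and at a mean of 517 in the other astrocytes. It was higher than in sub-clusters 1, 2 and 3 in each of 12 mice. Tril, an accessory protein of Toll-like receptor signalling, was at 279 ± 46.1 against 136 CPM, and Gabrg1, a GABA-A receptor subunit, at 201 ± 25.8 against 115 CPM. The remaining 9 of the 15 highest ratios ran from 1.72-fold to 2.01-fold. They were Arxes2, Cst3 (the protease inhibitor cystatin C), Metrn (a secreted neurotrophic protein), S1pr1 (a receptor for sphingosine 1-phosphate), Slitrk2, Lix1, Sparc (a secreted matrix protein that limits synapse formation), Cldn10 (a claudin) and Sdc4 (a heparan sulfate proteoglycan of the cell surface). Arxes2, Cst3, Metrn, Sparc and Cldn10 had a higher mean in sub-cluster 4 than in sub-cluster 0. The other astrocytes were a different mixture in the 2 genotypes, so the ratios are also given by genotype, with no test. The mean log2 ratio was smaller in SOD1G93A than in WT mice for 14 of the 15 genes, among them Sparc (1.16 in WT and 0.54 in SOD1G93A mice), Sdc4 (1.11 and 0.50) and Cst3 (1.23 and 0.68). Hsd11b1 was the exception (0.98 and 1.64). Every gene of the 15 was lowest in sub-cluster 2 except Hsd11b1, which was lowest in sub-cluster 3.

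The 15 lowest ratios were genes that other sub-clusters held at a high level. Ccdc3 and Adamtsl1 were highest in sub-cluster 3. For Ccdc3, a secreted protein, sub-cluster 0 had 8.43 ± 12.3 CPM and sub-cluster 3 had 303 ± 153 CPM. Of the 15, 12 were highest in sub-cluster 2. Among them Nrg1, a growth factor that binds ErbB receptors, was at 252 against 1842 CPM in sub-cluster 2, Cntnap5a at 103 against 1054 and Galnt13 at 83.2 against 629 CPM. The 5 neuron markers summed to a mean of 1968 CPM in sub-cluster 2 and 1479 in sub-cluster 4. Their sum was 644 in sub-cluster 0 and 3403 in neuron nuclei. The part of RNA from neurons in these low ratios was not tested. Sub-cluster 1 had a lower mean than sub-cluster 0 in 13 of these 15 genes.

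Lists of genes for astrocyte functions were compared in the same way, over the members of each list with at least 50 CPM. In the list for glutamate and GABA uptake the median log2 ratio of sub-cluster 0 over the other astrocytes was 0.447 over 16 genes. There, 6 genes were higher in all 12 mice (2.22% of all genes were), and 5 had their highest mean in sub-cluster 0 (8.04% of all genes did). Nothing is read from these counts about the list as such. They included Slc6a11, the GABA transporter GAT-3, at 1101 ± 219 CPM against 650.3 in the other astrocytes. Slc1a3, the glutamate transporter GLAST, was at 441 ± 72.7 against 278 CPM. Sub-cluster 4 alone had 1074 CPM of Slc6a11 and 506 of Slc1a3. In the list for potassium, water and gap junctions the median was 0.291 over 18 genes, with 5 higher in all 12 mice, among them Gja1, the gap junction protein connexin 43, at 984 ± 166 against 582 CPM, with 1148 in sub-cluster 3. Glutamate receptor genes had a median of -0.425 over 20 genes, with 3 lower in all 12 mice (2.69% of all genes were) and 0 higher in all 12. The order differed by gene and sub-cluster. Grm7 was at 336 CPM, against 209 in sub-cluster 1 and 1875 in sub-cluster 2, and Gria4 at 798, against 1265 and 1247. Sub-cluster 2 had the highest sum of neuron markers, and the part of RNA from neurons in this median was not tested. The cholesterol and lipid list had a median of 0.355 over 28 genes, 3 of them higher in all 12 mice and 10 highest in sub-cluster 0, beside the same 2.22% and 8.04% of all genes.

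Genes that mark astrocytes of grey matter did not all order the sub-clusters alike. The 7 genes of that list summed to a mean of 29362 CPM, against 35592 in sub-cluster 1 and 12542 in sub-cluster 3, and most of the sum came from Trpm3, Gpc5 and Slc1a2. Slc1a2, Slc6a11, Kcnj10 and Agt were higher in sub-cluster 0 than in sub-cluster 1, and Agt was at 242 CPM in sub-cluster 0 and 315 in sub-cluster 3. The 6 genes of white matter and fibrous astrocytes summed to 579 CPM, against 227 in sub-cluster 1 and 2451 in sub-cluster 3, and of these Aqp1 was at 0 in all 5 sub-clusters. In sub-cluster 0 the white matter and fibrous list ran from 414 to 561 CPM over WT mice and from 555 to 831 over SOD1G93A mice, with Gfap among its genes. Its sum was higher in the SOD1G93A mouse in 6 of 6 pairs. Gfap made up 321 of the mean of 579 CPM and was itself higher in 6 of 6 pairs, so the sum is not a result apart from Gfap. The list for grey matter ran from 27558 to 31975 CPM and from 24112 to 31067 CPM, and was higher in the SOD1G93A mouse in 3 of 6 pairs.

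The first comparison between genotypes was the share of a mouse's astrocytes that fell in sub-cluster 0. In WT mice the share was 23.1% to 36.5% (median 31.0%), and in SOD1G93A mice 24.4% to 46.2% (median 35.0%). The share was higher in the SOD1G93A mouse in 5 of 6 pairs, and the groups overlapped over most of their range. In edgeR's quasi-likelihood test, with terms for sex and genotype group and for pool, the log2 difference was 0.23, and the FDR over the 5 sub-clusters was 0.381. With 1 mouse left out the log2 difference ran from 0.05 (without the SOD1G93A female of pool B) to 0.36 (without the WT male of pool A). The exact sign-flip permutation test of the mean difference of 5.15 percentage points gave p = 0.15625. By sex, the medians were 33.6% in WT females, 29.6% in SOD1G93A females, 28.4% in WT males and 38.6% in SOD1G93A males. For the SOD1G93A female of pool A, 11 of 45 astrocytes gave a 95% Wilson interval of 14.2% to 38.7%, which covers counting error only.

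Other sub-clusters made up the remainder differently in the 2 genotypes. The share of sub-cluster 1 was 26.9% to 42.6% in WT and 4.81% to 21.6% in SOD1G93A mice (edgeR FDR 0.00173). That of sub-cluster 3 was 7.56% to 12.0% and 13.4% to 31.1% (edgeR FDR 0.000278). Neither pair of ranges overlapped. Gfap, which is high in sub-cluster 3 and low in sub-cluster 1, differed between genotypes within sub-cluster 0 itself, so a change in the level of such genes and a change in cell number cannot be told apart in these shares. In nuclei with at most 5% mitochondrial UMIs, sub-cluster 0 made up 23.2% to 38.1% of WT and 24.4% to 52.8% of SOD1G93A astrocytes. It was then higher in 6 of 6 pairs (edgeR FDR 0.238, unadjusted exact sign-flip p = 0.03125). That limit removes 61.8% of the nuclei of sub-cluster 4 and 7.25% of those of sub-cluster 0, and sub-cluster 4 had a median share of 6.04% in WT and 16.2% in SOD1G93A mice.

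**Figure D2:**
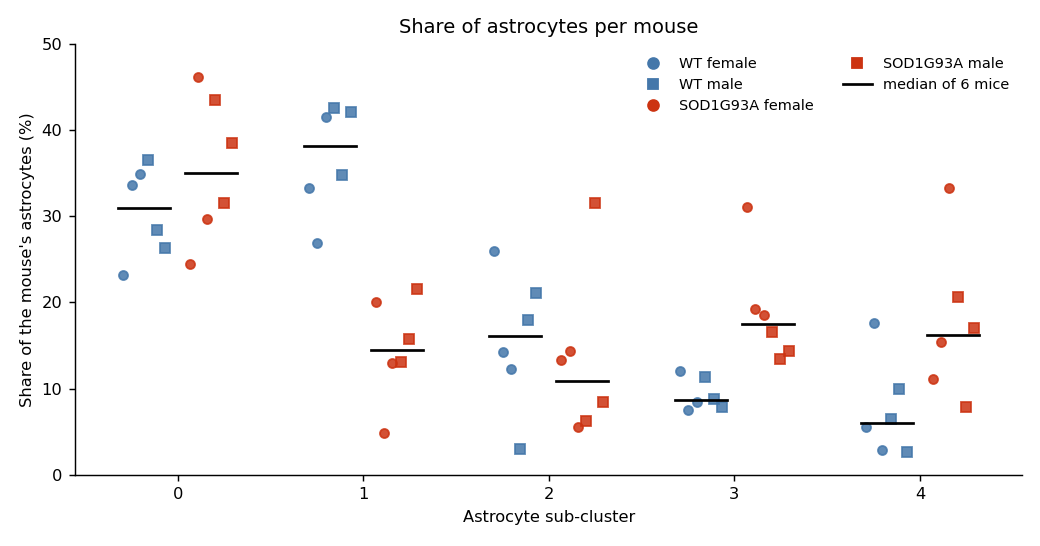
Share of each mouse's astrocyte nuclei (percent) in sub-clusters 0 to 4, 1 point per mouse, with WT mice in blue, SOD1G93A mice in red and black lines at the median of 6 mice. The genotypes overlap in sub-cluster 0 and do not overlap in sub-clusters 1 and 3.

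Within sub-cluster 0, few genes differed between genotypes. UMIs were summed per mouse and tested with limma-voom, and genes with an FDR (Benjamini-Hochberg) below 0.1 were called differentially expressed genes (DEGs). Of 5325 genes tested, 5 were DEGs (0.0939%), 4 higher and 1 lower in SOD1G93A mice. The number of DEGs ran from 2 to 8 with 1 mouse left out and was 1 with nuclei weighted equally. At an unadjusted p below 0.05 there were 276 genes (5.18%), 139 higher (2.61%) and 137 lower (2.57%). The median standard error of a log2 fold change was 0.25. The 5 DEGs were Sod1, Gfap, Gm4876, Hpgd and Gm2163, and each moved the same way in 6 of 6 pairs. Levels by genotype are given as normalised CPM, on library sizes scaled with TMMwsp factors.

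Sod1, on chromosome 16 (90220754 to 90226329, mm10), encodes the enzyme that removes superoxide, and human transcripts from the transgene may be among its UMIs. In WT mice it ran from 83.7 to 414 normalised CPM (median 139), and in SOD1G93A mice from 335 to 1014 (median 555). The groups overlapped, because the WT female of pool A was at 414 and the SOD1G93A female of pool B at 335. Within each pool both SOD1G93A mice were above both WT mice. The log2 fold change was 1.97 ± 0.15 (SE, FDR 9.03e-12 by limma-voom), a 3.91-fold difference. The label of every mouse was thus matched by its Sod1 level within its pool. Without the pool term the FDR was 0.504, while the log2 fold change stayed between 1.78 and 2.09 over 24 alternative fits, that one included.

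Gfap, on chromosome 11 (102887336 to 102900912), encodes the intermediate filament protein of astrocytes. It ran from 192 to 305 normalised CPM (median 257) in WT and from 328 to 606 (median 462) in SOD1G93A mice. Every SOD1G93A mouse was above every WT mouse. Such separation of the 2 genotypes was found in 14 of the 5325 genes tested (0.263%). The log2 fold change was 0.86 ± 0.15 (SE, FDR 0.00219 by limma-voom), a 1.82-fold difference, with 1.06 in males and 0.66 in females. Gfap was called without each of the 12 mice in turn. With every nucleus weighted equally it was not called (FDR 0.165).

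Hpgd, on chromosome 8 (56294585 to 56321043), encodes the enzyme that inactivates prostaglandins, and its span overlaps Gm45540 on the same strand. It ran from 32.7 to 64.8 normalised CPM (median 40.8) in WT mice and from 58.2 to 146 (median 113) in SOD1G93A mice. The lowest SOD1G93A mouse, the female of pool A, lay below the highest WT mouse, the male of pool B, and the other 5 SOD1G93A mice were above all WT mice. It was higher by a log2 fold change of 1.15 ± 0.26 (SE, FDR 0.083 by limma-voom). These values rest on 68 UMIs in WT and 151 in SOD1G93A mice. The call was lost when any 1 of 8 mice was left out, namely the males of either genotype in each pool and both females of pool C, with FDR from 0.112 to 0.543.

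Gm4876, on chromosome 6 (17065010 to 17171833), is annotated as an antisense transcript and overlaps Tes on the other strand. It ran from 37.8 to 109 normalised CPM (median 58.3) in WT and from 100.2 to 194 (median 113) in SOD1G93A mice. Only the WT female of pool A, at 109, lay within the range of the SOD1G93A mice. Its log2 fold change was 1.10 ± 0.22 (SE, FDR 0.0184 by limma-voom), with 1.53 in males and 0.66 in females. Without the WT male of pool A the FDR was 0.198, and the call was also lost with DESeq2, with no filter on low counts and with nuclei weighted equally. Gm2163, on chromosome 4 (42466752 to 42589938), is a predicted protein-coding gene whose span holds 1 annotated gene on each strand. It was the only DEG that was lower in SOD1G93A mice. It ran from 226 to 337 (median 279) in WT and from 112 to 219 (median 191) in SOD1G93A mice, without overlap. The log2 fold change was -0.74 ± 0.16 (SE, FDR 0.0553 by limma-voom), with -0.31 in males and -1.18 in females. Neither Gm2163 nor Gm4876 was called in the test of the genotype effect between the sexes. With edgeR's test and with DESeq2, Gm2163 was not called. DESeq2 called Sod1 and Gfap alone of the 5 DEGs. The call was lost without the WT male or the SOD1G93A male of pool A, or without the WT male, the WT female or the SOD1G93A female of pool B, with FDR from 0.16 to 0.503.

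**Figure D3:**
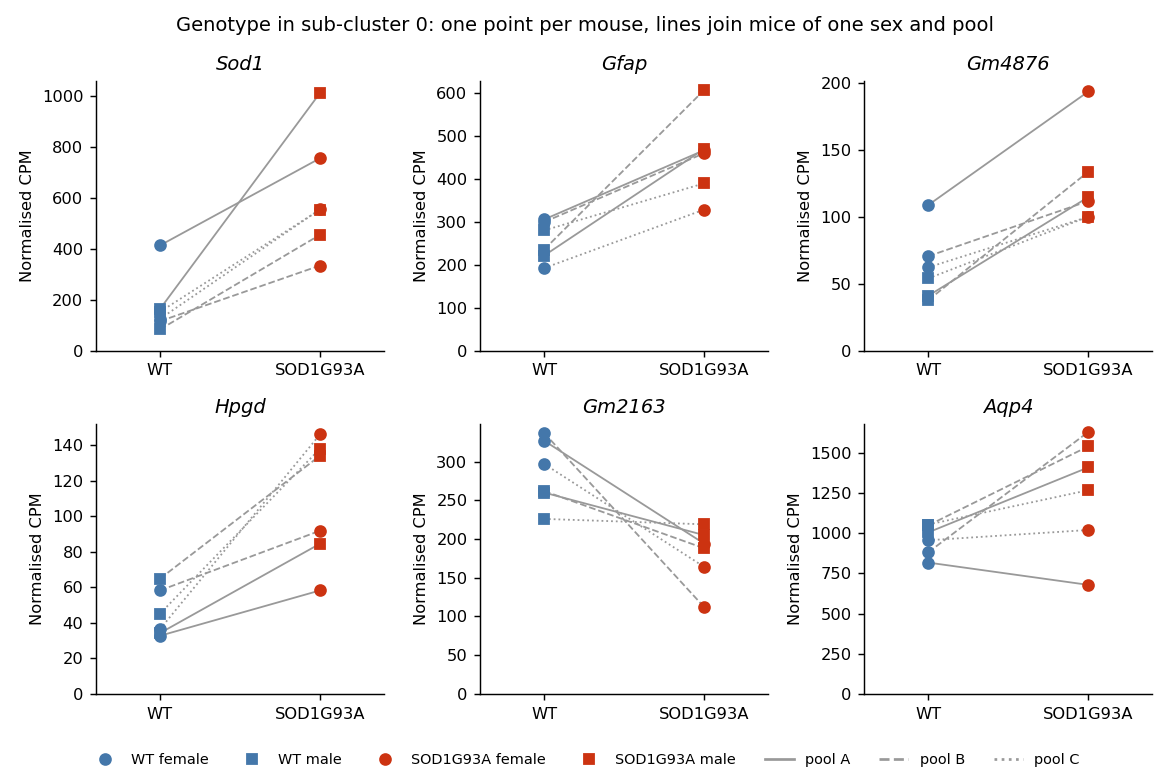
Normalised CPM of the 5 DEGs and of Aqp4 in sub-cluster 0 for each mouse, with lines that join the WT and SOD1G93A mice of 1 sex and pool. All 6 lines rise for Sod1, Gfap, Gm4876 and Hpgd, all 6 fall for Gm2163, and for Aqp4 5 rise and that of the females of pool A falls.

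The promoters of the 2 named protein-coding genes that rose and are not the transgene's own gene are shown for reference, since reactive changes of astrocytes are known to involve STAT3 and AP-1 factors. Each sequence is 300 bases from RefSeq (GRCm38.p6), 250 before and 50 after the annotated start, 5′ to 3′ on the strand of the gene. Gfap lies on the minus strand at chr11:102897151-102897450, within the span of the gene given above, and Hpgd on the plus strand at chr8:56294302-56294601. Capitals mark a match to the STAT pattern TTCNNNGAA.
Gfap: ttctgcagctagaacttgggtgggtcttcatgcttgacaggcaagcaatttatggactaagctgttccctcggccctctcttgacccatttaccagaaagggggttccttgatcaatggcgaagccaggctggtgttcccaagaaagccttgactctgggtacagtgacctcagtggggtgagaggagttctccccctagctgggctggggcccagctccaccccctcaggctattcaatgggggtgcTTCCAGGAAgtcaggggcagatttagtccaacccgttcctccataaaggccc
Hpgd: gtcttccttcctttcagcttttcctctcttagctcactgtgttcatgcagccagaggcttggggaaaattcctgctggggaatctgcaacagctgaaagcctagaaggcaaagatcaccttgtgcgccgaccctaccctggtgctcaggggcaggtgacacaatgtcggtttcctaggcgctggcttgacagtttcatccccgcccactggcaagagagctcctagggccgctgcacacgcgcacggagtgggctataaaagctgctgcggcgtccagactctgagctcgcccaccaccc

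The Gfap window held 1 match to TTCNNNGAA, at bases 249 to 257, and the Hpgd window held none. Neither held the AP-1 pattern TGANTCA. Both patterns read the same on the 2 strands. Of 32851 promoter windows of this length, 8.3% held the STAT pattern and 7.81% the AP-1 pattern. A match is a run of letters and was not tested as a binding site.

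Aqp4 missed the threshold, and 1 mouse decided its call. It ran from 818 to 1055 normalised CPM (median 981) in WT and from 679 to 1632 (median 1340.4) in SOD1G93A mice. Of 6 SOD1G93A mice, the lowest was the female of pool A, which had 11 nuclei. The log2 fold change was 0.41 (95% interval 0.16 to 0.67, FDR 0.611 by limma-voom). Without that mouse it was 0.51 (FDR 0.0479). With only mice of 20 or more sub-cluster 0 nuclei, a restriction chosen after the data were seen, it was 0.63 (FDR 0.00823). That restriction leaves 1 SOD1G93A female and calls 4 genes, Sod1, Gfap, Gm2163 and Aqp4. The other 2 markers had narrow intervals around smaller differences. Slc1a2 had a log2 fold change of 0.15 (95% interval -0.004 to 0.30, FDR 0.88) and Gpc5 one of -0.14 (-0.30 to 0.02, FDR 0.88).

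Among other astrocyte genes named in the study, none was called by limma-voom in sub-cluster 0. Clu (clusterin, a secreted chaperone that carries lipids) ran from 234 to 460 normalised CPM in WT and from 410 to 544 in SOD1G93A mice, with a log2 fold change of 0.41 (95% interval 0.13 to 0.70, FDR 0.734). The metallothionein Mt1, which binds zinc and copper, had 0.31 (0.06 to 0.55, FDR 0.796), Mt2 had 0.28 (-0.04 to 0.60, FDR 0.88) and Mt3 had 0.16 (-0.13 to 0.46, FDR 0.956). Fth1, the heavy chain of the iron store ferritin, had 0.05 (-0.18 to 0.28), and its sign changed in 5 alternative fits. Sparc had 0.07 (-0.17 to 0.31). Grin2c, a subunit of NMDA receptors, had 0.10 (-0.39 to 0.58) and changed sign in 3 alternative fits. Cdh22, a cadherin, had -0.31 (-0.68 to 0.07). Smarca4, a chromatin remodeller, had 0.14 (-0.35 to 0.62) and changed sign in 2. The study names these genes for all astrocytes. On all astrocytes of a mouse the same fit called Clu (0.91), Mt1 (0.79), Fth1 (0.58) and Grin2c (-0.78). For Grin2c the direction is opposite to that in the paper, which reports it as up-regulated in SOD1G93A astrocytes. The fit on all astrocytes also called Mt2, Mt3, Sparc, Cdh22 and Cav2, but not Smarca4 or Hpse2. The paper names Hpse2 for an interaction of genotype and sex. It names Smarca4, Pparg and Fos for inferred regulatory activity, and Fos also for protein staining, which a genotype effect on RNA does not measure. For Fth1 the values in sub-clusters 1 to 4 taken singly ran from -0.14 to 0.20. All astrocytes together were also a different mixture of sub-clusters in the 2 genotypes. The part of this mixture, and that of the smaller number of nuclei, in the lack of calls in sub-cluster 0 was not tested.

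Cav2, Hpse2, Fos and Pparg were too low to be tested. Fos, an immediate early gene and AP-1 subunit, had 6 UMIs in WT and 31 in SOD1G93A mice, and was at 0 in 3 WT mice and 1 SOD1G93A mouse. Cav2 (a caveolin) had 12 and 26 UMIs, Hpse2 (an inhibitor of heparanase) 8 and 17, and Pparg (a lipid-sensing nuclear receptor) 3 and 7. For Hpse2 the highest mice were at 65.4 normalised CPM in WT (median 1.14) and 82.0 in SOD1G93A (median 9.68).

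**Figure D4:**
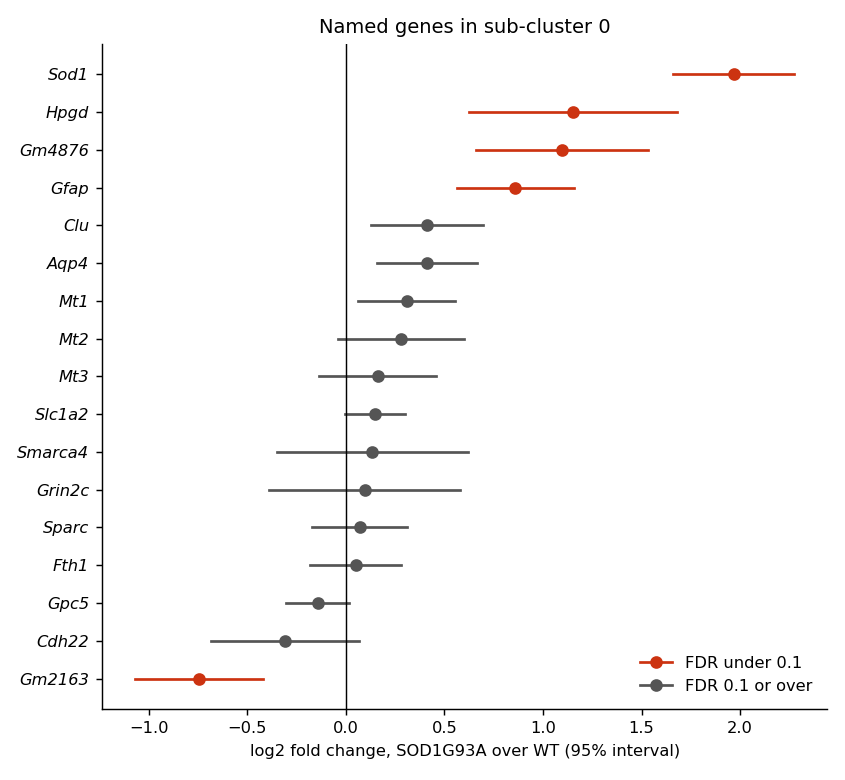
Log2 fold change of SOD1G93A over WT in sub-cluster 0 for the named genes that could be tested, with 95% intervals from limma-voom and genes of FDR below 0.1 in red. The intervals of Sod1, Hpgd, Gm4876, Gfap and Gm2163 lie away from 0, as do those of Clu, Aqp4 and Mt1, which did not pass the FDR threshold.

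Of 351 genes in 11 lists of astrocyte functions, 177 could be tested in sub-cluster 0, and 2 were DEGs, Sod1 in the antioxidant list and Gfap among the reactive astrocyte genes, where 0.0939% of all genes tested were called. The median log2 fold change of all genes tested was -0.01. The 16 genes of glutamate and GABA uptake had a median of -0.07, with 0 called and 1 lower at an unadjusted p below 0.05. That gene was Slc1a3, at 480 to 613 normalised CPM in WT and 355 to 507 in SOD1G93A mice, lower in 6 of 6 pairs (log2 fold change -0.36, 95% interval -0.62 to -0.10, FDR 0.763). The 19 genes for potassium, water and gap junctions had a median of -0.02, with Aqp4 alone higher at an unadjusted p below 0.05. The 5 tested reactive astrocyte genes had a median of 0.18. Among them Ctsb, the lysosomal protease cathepsin B, ran from 54.5 to 128 normalised CPM in WT and from 144 to 233 in SOD1G93A mice, without overlap, and did not pass the threshold (log2 fold change 0.73, 95% interval 0.33 to 1.12, FDR 0.366). Fkbp5, a co-chaperone induced by glucocorticoids, had -0.95 (-1.74 to -0.17, FDR 0.809).

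In the list of the AP-1 and Stat3 pathway, 9 of 29 genes could be tested, with a median of -0.12. Stat3 itself had a log2 fold change of 0.49 (95% interval 0.04 to 0.93, FDR 0.871). The 36 tested genes of cholesterol and lipid metabolism had a median of 0.05, the 35 of synapse-modulating genes -0.05, the 17 of metal binding and iron 0.06, the 20 glutamate receptor genes 0.04, and the 15 antioxidant genes -0.07. Complement had 2 testable genes, Clu (0.412) and Cd46 (-0.475), which went opposite ways (median -0.03). Among the complement genes too low to be tested were C1qa, C3 and C4b. The serine and folate list had 6 testable genes (median -0.22). At an unadjusted p below 0.05, where 5.18% of all genes tested lay, these lists had 1 or 2 genes each, except for 4 in the synapse-modulating list (3 higher and 1 lower) and 0 in serine and folate. Lists with 2 such genes had 1 higher and 1 lower, and in lists with 1 it was higher.

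Markers of other cell types in sub-cluster 0 were summed by genotype. The oligodendrocyte markers were at 1047 to 1835 CPM in WT and 1337 to 2216 in SOD1G93A mice, and the neuron markers at 304 to 729 and 412 to 899 CPM. The OPC markers were at 38.7 to 186 and 39.1 to 208, the microglial markers at 4.55 to 116 and 8.41 to 113, the endothelial markers at 7.06 to 182 and 0 to 27.6, and the ependymal markers at 9.41 to 18.2 and 9.2 to 42.0 CPM. The neuron and ependymal sums were higher in the SOD1G93A mouse in 5 of 6 pairs and the oligodendrocyte sum in 3 of 6. All of these ranges overlapped, and their part in the DEGs was not tested.

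The same fit on all astrocytes of a mouse called 214 of 9347 genes (2.29%), and on sub-clusters 1 to 4 together 430 of 7745 (5.55%). In the single sub-clusters it called 0 of 3309 genes in sub-cluster 1 (0%), 2 of 2658 in sub-cluster 2 (0.0752%), 2 of 3173 in sub-cluster 3 (0.0630%) and 1 of 2331 in sub-cluster 4 (0.0429%). Sub-cluster 0, with the most nuclei, had the most calls of the 5. These fits use the same mice. For Gfap the log2 fold changes were 0.86 in sub-cluster 0, 1.15 ± 0.30 (SE) in sub-cluster 1, 0.28 ± 0.43 in sub-cluster 2, 0.22 ± 0.15 in sub-cluster 3, 0.67 ± 0.24 in sub-cluster 4 and 1.21 ± 0.13 in the 4 together. For Clu they were 0.41 ± 0.14 in sub-cluster 0, 0.27 to 0.72 in the 4 others taken singly and 1.22 ± 0.14 in the 4 together. For Gpc5 they were -0.14 ± 0.08 in sub-cluster 0, -0.59 to 0.39 in the others taken singly and -1.09 ± 0.11 together.

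The difference between the genotype effect in sub-cluster 0 and that in the other astrocytes was then tested within mice. With sub-clusters 1 to 4 summed, 65 of 7472 genes differed at FDR below 0.1 (0.870%) and 762 at an unadjusted p below 0.05 (10.2%). The effect in sub-cluster 0 was the higher of the 2 for 44 genes and the lower for 21. Of the 65 genes, 0 were DEGs in sub-cluster 0, and 54 were DEGs in the other astrocytes. Among the 44 were Kirrel3 and Lsamp, cell adhesion molecules, and Vav3, a guanine nucleotide exchange factor, with log2 differences of 0.89 ± 0.11 (SE, FDR 6.07e-06), 0.44 ± 0.06 (FDR 1.53e-05) and 1.38 ± 0.21 (FDR 5.86e-05) by limma-voom. Plcb1 (a phospholipase C), Trp63 (p63, of the p53 family) and Rora (a nuclear receptor) had 0.59, 0.93 and 0.56. Among the 21 were the lipid carriers Apoe (-0.71 ± 0.11, FDR 0.000128) and Clu (-0.83 ± 0.18, FDR 0.00808), Mt1 (-0.74), Id4 (an inhibitor of DNA binding, -0.93), Gm11808 (-1.18) and the ribosomal protein gene Rpl27a (-1.44). With mouse as a random block, Kirrel3, Lsamp, Plcb1, Apoe, Clu, Id4 and Rpl27a were not called. The number of genes called ran from 34 to 218 with 1 mouse left out.

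The summed sub-clusters were not the same mixture in both genotypes. Of the UMIs of the other astrocytes, sub-cluster 1 gave 34.5% to 61.1% in WT and 8.03% to 30.8% in SOD1G93A mice, and sub-cluster 3 gave 8.63% to 22.5% and 21.2% to 50.7%. The median mitochondrial share of the other astrocytes was 0.399% to 1.17% in WT and 1.01% to 2.74% in SOD1G93A mice. It was higher in the SOD1G93A mouse of every pair, and its part in the called differences was not tested. A second fit, chosen after the data were seen, gave each sub-cluster its own terms, on 60 sums from 5 sub-clusters and 12 mice. Against the mean of sub-clusters 1 to 4, 0 of 5222 genes differed at FDR below 0.1 by limma-voom (0%), and 94 at an unadjusted p below 0.05 (1.80%). Against each of sub-clusters 1, 2, 3 and 4 it also called 0 genes, with 238 (4.56%), 155 (2.97%), 162 (3.10%) and 180 (3.45%) genes at an unadjusted p below 0.05. Some of the 60 sums held few nuclei. Sub-cluster 4, for example, was 2.83% of the 106 astrocytes of the WT female of pool C. A count of 0 here thus does not show that the genotype effects were equal.

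Of the 65 genes, 63 could be tested in this second fit, with a median size of the difference of 0.20 against 0.71 on the log2 scale. These genes were chosen for a large difference in the first fit, so smaller values in another fit carry no weight by themselves. Their standard errors were larger in the second fit for 62 of 63 genes, with medians of 0.21 and 0.16. Gpc5 went from a difference of 0.93 to 0.01 (95% interval -0.24 to 0.25), Kirrel3 from 0.89 to 0.10 (-0.24 to 0.45), Apoe from -0.71 to -0.07 (-0.41 to 0.27) and Mt1 from -0.74 to -0.04 (-0.50 to 0.42). Grin2c went from 1.61 to 0.83 (0.07 to 1.58) and Stk32a, a kinase gene, from 1.13 to 0.75 (0.33 to 1.18). Of the 63 intervals, 4 did not hold 0, those of Stk32a, Grin2c, Clcn3 (-1.24 to -0.15) and Tspan5 (0.001 to 0.76), and 0 of these genes passed the FDR over all genes. Gpc5, Grin2c, Stk32a, Clcn3 and Tspan5 were chosen for naming here after their values were seen. The second fit differs from the first in the sums, in the genes tested and in the weight of each sub-cluster, and which of these bears on the number of calls was not tested.

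**Figure D5:**
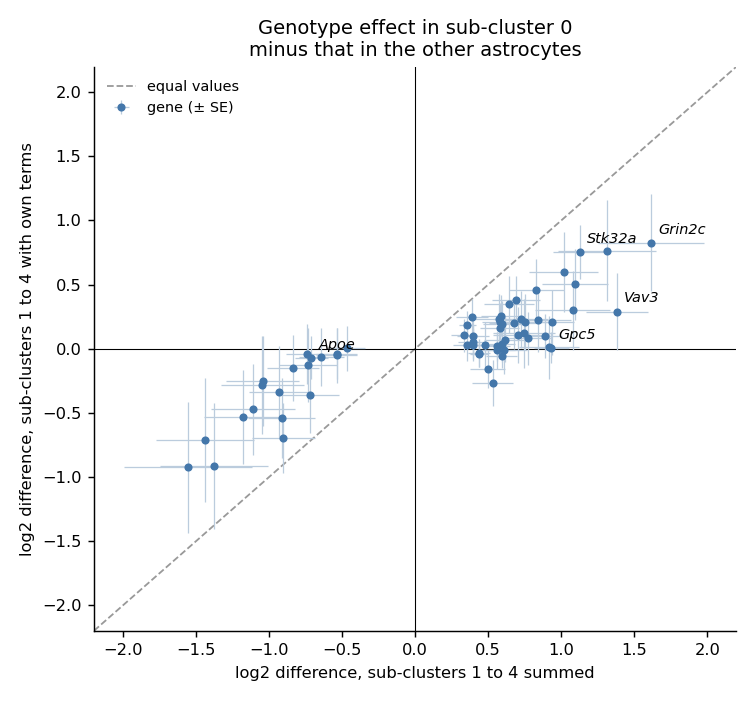
Genotype effect (log2) in sub-cluster 0 minus that in the other astrocytes for 63 of the 65 genes called with sub-clusters 1 to 4 summed (horizontal axis), against the same difference with a term set for each sub-cluster (vertical axis), with bars of 1 SE. The genes were chosen for their values on the horizontal axis, the dashed line marks equal values, and 55 genes have the same sign on both axes.

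Between the sexes, 13 of 5325 genes differed in sub-cluster 0 at FDR below 0.1 by limma-voom (0.244%), 7 higher in females and 6 higher in males, and 357 at an unadjusted p below 0.05 (6.70%). Of the 13, 4 were on the X chromosome (Xist, Tsix, Eda and Kdm6a), 4 on the Y (Uty, Kdm5d, Ddx3y and Eif2s3y) and 5 on autosomes. Xist, the RNA that silences 1 X chromosome in females, was at 1025 to 1443 normalised CPM in females and 10.8 to 63.1 in males. Uty was at 0 to 25.0 in females and 235 to 321 in males. On the autosomes, Plxdc2, a membrane protein, ran from 338 to 641 normalised CPM (median 429.8) in females and from 221 to 316 (median 297) in males, without overlap (log2 female over male 0.68 ± 0.15 SE, FDR 0.0359). Car10, a catalytically inactive carbonic anhydrase, ran from 1398 to 1940.4 (median 1514) in females and from 2015 to 2571 (median 2147) in males, also without overlap (-0.46 ± 0.10, FDR 0.036). March1 (an E3 ubiquitin ligase) and Lrmda were higher in females by 1.22 and 0.68, and Nhsl1 was lower (-0.52), with overlapping ranges. Over 24 alternatives, Plxdc2 and Car10 were called in 17 each, Nhsl1 in 15, March1 in 13, Lrmda in 12 and the X-linked Kdm6a in 11, the fewest of the 13 genes, and the value for March1 ran from 0.57 to 1.49. With 1 mouse left out, March1 was called in 5 of 12 fits. Without the 5% of nuclei with the most UMIs in each pool, Plxdc2, Car10, March1, Lrmda, Kdm6a and Eda were not called. With every nucleus weighted equally, none of the autosomal genes was called. Without the WT female of pool C, 38 genes were called, and without the SOD1G93A male of pool C, 29.

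The genotype effect differed between the sexes for 1 of 5325 genes in sub-cluster 0 (0.0188%), and for 293 at an unadjusted p below 0.05 (5.50%). That gene was Tnr, which encodes tenascin-R, a matrix protein of perineuronal nets that is made by oligodendrocyte lineage cells and neurons and is 1 of the 4 OPC markers used here. In WT females it was at 87.2, 29.1 and 31.2 normalised CPM and in SOD1G93A females at 136, 159.6 and 100.2 in pools A, B and C. In WT males it was at 36.5, 151 and 99.2 and in SOD1G93A males at 25.6, 33.4 and 43.9. Thus it was higher in each SOD1G93A female and lower in each SOD1G93A male than in the WT mouse of that sex and pool. The log2 fold change in males minus that in females was -3.13 ± 0.61 (SE, FDR 0.0686 by limma-voom). Without the 5% of nuclei with the most UMIs in each pool it was -1.96 (FDR 0.957), and leaving out any 1 of 8 mice raised the FDR to between 0.146 and 0.754. These were both SOD1G93A males and WT males of pools B and C, the SOD1G93A male of pool A, the females of pool B and the WT female of pool C.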

How the data were processed

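Single-nucleus RNA-seq libraries (10x v3) of 3 hashtagged pools were aligned by the authors to mm10 with introns counted, using Cell Ranger 3.1 per the labels. The deposited matrix holds raw UMI counts per gene and nucleus, and the deposited metadata hold mouse, sex, genotype, sub-cluster and mitochondrial percent, as the authors computed it. Mouse and genotype were taken from those metadata, since each GEO sample is a pool. How doublets were treated rests on the authors' filtering, and no caller was run here.

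UMIs of sub-cluster 0 were summed per mouse (53251 to 491423). Genes were filtered with filterByExpr (minimum count 10), scaled with TMMwsp and tested with limma-voom (limma 3.58.1, edgeR 4.0.16, R 4.3.3), with sex and genotype groups, pool as a block, robust moderation and Benjamini-Hochberg FDR below 0.1. Shares were tested with edgeR's quasi-likelihood test at FDR below 0.05. Pairs of mice of 1 sex and pool were compared with an exact sign-flip permutation test. Named genes were the DEGs, with at most 12 changed the same way in at least 5 of 6 pairs, genes the study names for astrocytes, the 3 markers, the 15 highest and 15 lowest ratios, and the leading genes of each further contrast. The members and gene lists were chosen with earlier results of these data known. The tests were tried on simulated counts first. The alternatives were edgeR, DESeq2 1.42.0, other scalings and filters, no pool block, nuclei filters and each mouse left out. Values of some genes are not reported here.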

Additional observations from a re-analysis of the deposited data

Results flagged for a closer look

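In groups of 6 mice, 5 of 48 tested groups of named-gene levels in sub-cluster 0 had 1 mouse far from the others by Dixon's test, where chance gives about 2.4. The mice were the WT female of pool A for Sod1 (414 normalised CPM) and for Hpse2 (65.4), the WT female of pool B for Fos (12.5), the SOD1G93A female of pool A for Gm4876 (194) and the SOD1G93A female of pool C for Hpse2 (82.0). Hpse2 rests on 8 UMIs in WT and 17 in SOD1G93A mice, and Fos on 6 and 31.

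The genotype effect on Tnr differed between males and females by -3.13 on the log2 scale.

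Genotype effects in sub-cluster 0 differed from those in sub-clusters 1 to 4 summed for 65 genes. The named ones, with the log2 difference, were Kirrel3 (0.89), Lsamp (0.44), Plcb1 (0.59), Vav3 (1.38), Trp63 (0.93), Rora (0.56), Apoe (-0.71), Mt1 (-0.74), Clu (-0.83), Gm11808 (-1.18), Id4 (-0.93) and Rpl27a (-1.44). With a set of terms for each sub-cluster, 0 genes were called by limma-voom and 94 had an unadjusted p below 0.05.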

How the results depend on the processing

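Of the 5 DEGs by genotype, Sod1 was called in 23 of 24 alternatives, Gfap in 23, Gm4876 in 18, Gm2163 in 15 and Hpgd in 8. The number of DEGs was 2 with DESeq2, 3 with a minimum count of 30, 3 without the pool block and 1 with nuclei weighted equally. Leaving out 1 mouse gave 2 (without the WT male of pool A) to 8 (without the SOD1G93A female or male of pool A, or the WT female of pool B or C). By sex, 35 genes were called with no filter on low counts, 8 with a minimum count of 30, 2 with equal weights, and 9 to 38 with 1 mouse left out. For genotype by sex, 0 genes were called with edgeR, DESeq2, a minimum count of 30, no pool block, no robust moderation, equal weights or without the 5% of nuclei with most UMIs, against 5 with no filter and 3 with at most 5% mitochondrial UMIs or with mice of 20 or more nuclei. With 1 mouse left out the range was 0 to 4.

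The 65 genes of the difference became 40 with edgeR, 23 with no filter, 122 with a minimum count of 30, 12 with mouse as a random block and 0 with terms for each sub-cluster. With 1 mouse left out the number ran from 34 (without the SOD1G93A male of pool A) to 218 (without the SOD1G93A female of pool A). The log2 difference in share ran from 0.05 to 0.36 with 1 mouse left out and was never past the threshold.

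Signs reversed for Grin2c without the WT male of pool A (-0.076), the WT female of pool B (-0.165) or the SOD1G93A female of pool B (-0.146), with a range of -0.165 to 0.227 over all 12 mice left out in turn. They reversed for Fth1 without the WT male of pool A (-0.003), the SOD1G93A female of pool A (-0.025), the WT male of pool B (-0.025) or the WT female of pool C (-0.038), with a range of -0.038 to 0.137, and with mice of 20 or more nuclei (-0.012). They reversed for Smarca4 without the WT female (-0.026) or SOD1G93A male (-0.016) of pool B, with a range of -0.026 to 0.243, and for Lsamp with terms for each sub-cluster (-0.041). The cause was not tested. Restricting to mice of 20 or more nuclei and giving each sub-cluster its terms were chosen after seeing the data. The median 95% interval of a genotype effect reached 0.51 to either side on the log2 scale, which holds both counting error and the spread between mice.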
